A study of Mus musculus with 10 samples.

Results

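The genes described here are 10 genes of the hypoxia-inducible factor (HIF) pathway, taken by symbol from tables of 21853 protein-coding genes. They were the factor genes Hif1a and Epas1, the oxygen-sensing genes Vhl, Egln1 and Egln3, and the target genes Vegfa, Bnip3, Ankrd37, Ndrg1 and Car9. The 10 bulk RNA libraries came from 5 mouse embryonic stem cell (ESC) lines, each line sequenced as 2 libraries. Naïve ESCs were wild-type J1 cells grown with serum, leukemia inhibitory factor and inhibitors of MEK and GSK3 (2i). GKO, AKO and DKO were J1 cells with the genotypes GYS1 KO, AMPK KO, and AMPK and GYS1 KO. Primed ESCs (PJ1) were wild-type J1 cells kept on Matrigel with serum replacement, bFgf and Activin. The primed state and its medium therefore cannot be told apart. GKO came from picked single colonies with a Cas9 indel in Gys1, while AMPK was disrupted in J1 with a commercial Prkaa1 plasmid pair that carries an RFP reporter, followed by sorting. Which clones gave the libraries, and whether the 2 libraries of a line were separate cultures, is not given in the sources used here, so p-values measure only the spread between these libraries. The culture descriptions name no low-oxygen step for any line.

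Cells respond to low oxygen mainly through the stability of the HIF-α proteins. In oxygenated cells the prolyl hydroxylases encoded by Egln1 (PHD2) and Egln3 (PHD3) mark HIF-1α (Hif1a) and HIF-2α (Epas1), and the ubiquitin ligase subunit encoded by Vhl then leads them to degradation. When oxygen falls, the α subunits persist, pair with Arnt and bind short hypoxia response elements near their targets, among which are Egln1 and Egln3 themselves. Pluripotent cells are known to change their energy metabolism between the naïve and primed states, with HIF-1α as one of the regulators described. The values below are mRNA levels and say nothing of HIF protein.

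Promoter windows were read from RefSeq (build GRCm38.p6) for 8 of the 10 genes, with 250 bases before and 50 bases after each transcription start. Those not matched were Epas1 and Ndrg1. The core of the hypoxia response element was searched on both strands as ACGTG, and separately as GCGTG. The first was found in 7 of the 9 windows of these genes, from 7 of the 8 genes, and in 19.62% of the 32851 windows of all genes. The second was found in 4 of the 9 windows, from 4 of the 8 genes, against 32.39% of all windows. Vhl held neither, and of the 2 windows of Vegfa only the second held both. The bases just after the start in that second window were not found near the start of any GENCODE transcript of Vegfa. The 250 bases before the start are given for 4 genes that all carry the core but moved differently in GKO, with ACGTG and its reverse complement in capitals.
Egln1, promoter on chr8:124949255-124949504, minus strand: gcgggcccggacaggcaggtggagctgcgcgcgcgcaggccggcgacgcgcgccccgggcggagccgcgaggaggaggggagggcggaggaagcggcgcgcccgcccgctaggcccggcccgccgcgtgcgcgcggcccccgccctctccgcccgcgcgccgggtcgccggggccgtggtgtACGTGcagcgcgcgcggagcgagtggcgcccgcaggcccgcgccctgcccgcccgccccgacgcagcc
Egln3, promoter on chr12:54203875-54204124, minus strand: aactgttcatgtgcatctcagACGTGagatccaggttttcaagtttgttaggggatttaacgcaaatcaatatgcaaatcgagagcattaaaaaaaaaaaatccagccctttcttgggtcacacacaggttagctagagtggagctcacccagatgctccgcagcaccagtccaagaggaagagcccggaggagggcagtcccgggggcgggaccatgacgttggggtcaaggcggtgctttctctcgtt
Bnip3, promoter on chr7:138909507-138909756, minus strand: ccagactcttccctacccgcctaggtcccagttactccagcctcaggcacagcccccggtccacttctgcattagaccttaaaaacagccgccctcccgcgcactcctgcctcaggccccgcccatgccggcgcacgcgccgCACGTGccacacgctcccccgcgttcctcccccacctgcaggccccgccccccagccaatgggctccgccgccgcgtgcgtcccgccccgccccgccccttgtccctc
Ankrd37, promoter on chr8:45999851-46000100, minus strand: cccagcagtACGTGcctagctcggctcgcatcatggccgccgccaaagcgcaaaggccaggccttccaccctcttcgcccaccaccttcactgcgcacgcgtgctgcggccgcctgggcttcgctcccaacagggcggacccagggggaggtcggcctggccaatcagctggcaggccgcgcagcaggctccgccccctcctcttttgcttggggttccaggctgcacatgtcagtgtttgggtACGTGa
In Egln1 the core began 68 bases before the start, and in Egln3 229 bases before it. Bnip3 had a palindromic CACGTG, matched on both strands from 108 bases before the start, while Ankrd37 had a core at 241 bases and another at 6 bases before it. A match describes these letters only and is no evidence of binding.

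**Figure D1:**
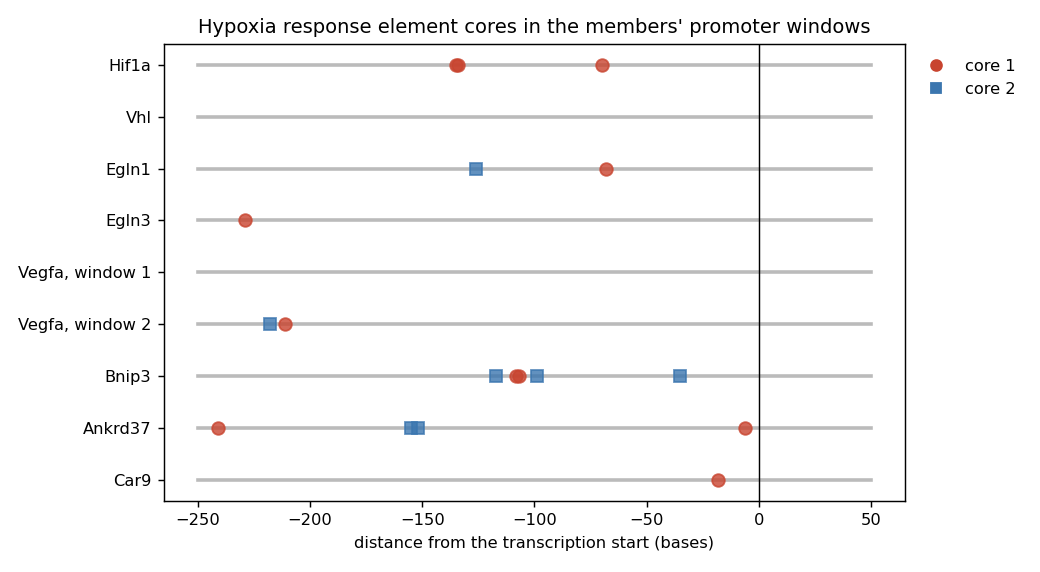
Positions of the hypoxia response element core in the RefSeq promoter windows of 8 HIF pathway genes, as distance in bases from the transcription start (vertical line). Red circles mark ACGTG and blue squares GCGTG on either strand, grey lines the windows from 250 bases before to 50 bases after the start, and Vhl and the first Vegfa window are empty.

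Expression was deposited as TPM, an abundance corrected for transcript length within a library. The depth of the libraries is unknown from TPM, so no counting interval is given. The listed genes summed to between 500162 and 578952 TPM per library, and replicate libraries differed by a median of 0.06 to 0.07 in absolute log2 value in naïve, AKO, DKO and GKO and 0.13 in primed ESCs. Prkaa1 stood at 15.5 and 16.6 TPM in the naïve libraries, 7.24 and 6.94 in AKO and 2.30 and 2.04 in DKO. This was in the direction of the labels. In GKO Prkaa1 was also lower than in naïve ESCs (mean 12.06 against 16.05 TPM, adjusted p = 0.00155, limma). Prkaa2, the other catalytic subunit gene of AMPK, stood at 2.39 to 3.29 TPM in all 8 libraries of these lines and GKO. Its mean was higher in GKO than in naïve ESCs (3.281 against 2.399 TPM, adjusted p = 0.00785, limma). In DKO (3.197 TPM) it was higher than in naïve ESCs (adjusted p = 0.0136) and AKO (2.57 TPM, adjusted p = 0.0405). Gys1 mRNA did not separate GKO at the threshold (9.70 and 9.98 against 11.5 and 10.8 TPM, adjusted p = 0.05002, limma), and an indel need not lower mRNA. The 5 naïve markers Zfp42, Esrrb, Klf4, Tfcp2l1 and Nr0b1 summed to 887 to 1032 TPM in the 8 libraries grown in 2i. In primed ESCs they summed to 4.91 and 5.64 TPM. Of these 5, Esrrb, Tfcp2l1 and Nr0b1 were called higher than in naïve ESCs in both GKO and DKO, and 0 lower (limma). Esrrb had a mean of 232.6 TPM in GKO and 239.8 in DKO against 179.7 in naïve ESCs. The 5 primed markers Fgf5, Otx2, Pou3f1, Zic2 and Dnmt3b summed to 378 and 429 TPM in primed ESCs and to 40.3 to 68.8 TPM elsewhere, although Fgf5 was at 10.7 in one primed library and 0.447 in the other. These sums hide single markers, as Zic2 had a mean of 33.48 TPM in GKO and 4.93 in DKO against 14.05 in naïve ESCs. Otx2, Pou3f1 and Dnmt3b were not called in GKO. In DKO Otx2 was lower (2.69 against 5.91 TPM) and Dnmt3b higher (41.15 against 27.89 TPM) than in naïve ESCs. Pou5f1 and Sox2 together stood between 598 and 1112 TPM in every library. Of markers of other cells, the summed level of 4 trophectoderm genes was 23.65 to 23.95 TPM in GKO and 19.9 to 22.3 in DKO against 11.2 to 11.4 in naïve ESCs. That of 4 fibroblast genes was 7.96 to 9.22 TPM in GKO, nearly all Thy1, against 2.76 to 3.32 in naïve ESCs, with Postn listed at 0 in both lines. In primed ESCs the sums were 19.6 and 31.2 TPM for trophectoderm and 8.64 and 14.8 TPM for fibroblast genes. The 4 primitive endoderm genes summed to 1.78 to 1.86 TPM in GKO and 0.785 to 1.10 in naïve ESCs. The part of these markers in the results below was not tested.

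The test covered the 12060 genes that reached 1 TPM in 2 or more libraries. Of the 10 HIF pathway genes 9 passed this filter, and Car9 did not. Differences are on the log2(TPM + 1) scale, on which low genes appear to change less than they do, and were tested with limma in a single fit of all libraries. For 2 libraries against 2, no exact two-sided permutation p below 0.333 is possible for a single gene, so every call leans on the spread limma shares across genes. In bulk RNA, a change in the share of cells that express a gene and a change in RNA per cell cannot be told apart.

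Loss of glycogen synthase in GKO went with higher mRNA of 6 of the 9 tested genes, namely Hif1a, Epas1, Egln1, Egln3, Vegfa and Ndrg1, and with lower Ankrd37. GKO differed from naïve ESCs at 51.7% of all genes tested, 24.7% higher and 27.1% lower, so a call by itself is common in this comparison. Of those calls 47.7% were higher in GKO, and 65.7% were when each library was rescaled to the same total over the listed genes. The median difference of the 9 genes was 0.48 against -0.01 over all genes. In DKO, with Prkaa1 disrupted as well, 1 of the 9 was called against naïve ESCs (Hif1a, higher). This stood beside 46% of all genes (21.7% higher, 24.3% lower). AKO had 0 of 9 called (limma, 0 also at an unadjusted p under 0.05), beside 0.224% of all genes (0.0663% higher, 0.158% lower). Compared directly, GKO was above DKO for 6 of the 9 and below it for 0 (43.5% of all genes differed, 21.2% being higher and 22.4% lower in GKO). The calls were fewer with a library left out. Without naïve replicate 1 or 2 the count in GKO fell to 3 and 4, and without GKO replicate 1 or 2 to 2 and 4, each time with the lone library assumed to vary like the other lines. In those 4 fits the shares of the 9 genes were 22.2% to 44.4%, against 38% to 39.9% of all genes, so the count of calls did not set these genes apart once a library was left out.

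**Figure D2:**
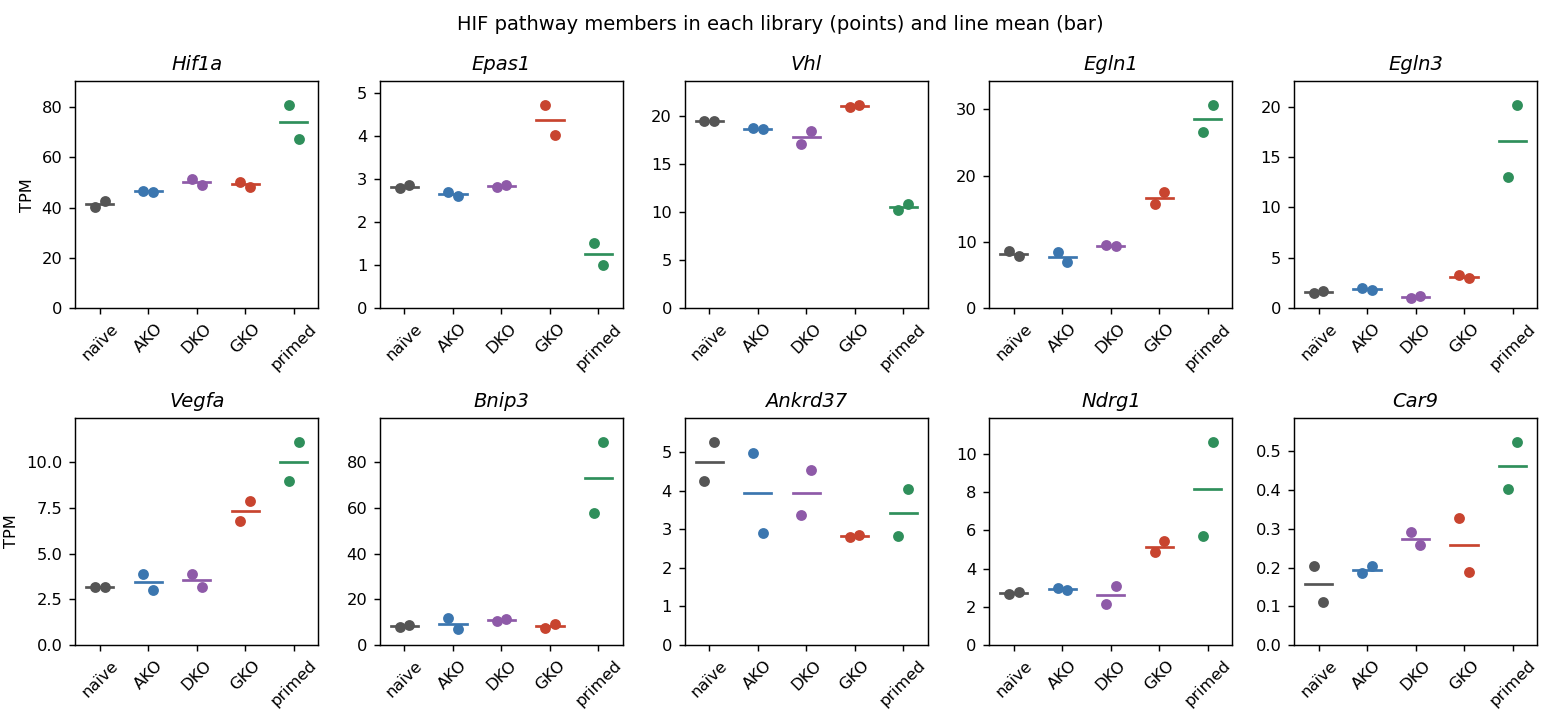
Level of the 10 HIF pathway genes in TPM (vertical axes, starting at 0) in each of the 5 lines; points are libraries and bars line means. Both GKO libraries lie above all naïve, AKO and DKO libraries for Epas1, Egln1, Egln3, Vegfa and Ndrg1 and, by a small margin, Vhl. How many of all genes separate in this way was not counted. Bnip3 is high in primed ESCs only.

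Of the factor genes, Hif1a was by far the more abundant. It lies on chromosome 12, at bases 73948149 to 73996321 of GRCm39, and encodes the oxygen-regulated subunit of HIF-1. Its level was 40.4 and 42.6 TPM in naïve ESCs, 46.8 and 46.2 in AKO, 51.6 and 49.1 in DKO, 50.4 and 48.3 in GKO and, highest, 80.7 and 67.5 for primed ESCs. Every other library thus lay above both naïve libraries, and the primed libraries lay above all others, whereas GKO and DKO overlapped. The log2 difference from naïve ESCs was 0.24 in GKO (SE 0.08, adjusted p = 0.0252, limma) and 0.27 in DKO (SE 0.08, adjusted p = 0.0176). GKO and DKO did not differ detectably (-0.03, 95% interval -0.20 to 0.15, adjusted p = 0.799). In AKO the difference of 0.16 did not pass (adjusted p = 0.524, limma), and there the median of the 400 tested genes of chromosome 12 stood at 0.16 as well. Relative to that chromosome's median, Hif1a was at 0.23 in GKO, 0.14 in DKO and 0.01 in AKO. The GKO call was lost without any one of the 4 libraries compared (difference 0.21 to 0.28), and the DKO call without naïve replicate 1 (0.23) or DKO replicate 1 (0.24).

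Epas1, at bases 87061087 to 87140838 of chromosome 17, encodes HIF-2α, which has its own set of targets beside those shared with HIF-1α. It measured 2.79 and 2.87 TPM in naïve ESCs, 2.72 and 2.63 in AKO, 2.83 and 2.87 in DKO, 4.72 and 4.02 in GKO and only 1.53 and 0.999 for primed ESCs. GKO was therefore the highest line and primed the lowest and the naïve, AKO and DKO libraries lay close together. In GKO the log2 difference from naïve ESCs was 0.49 (SE 0.11, adjusted p = 0.00697, limma), a TPM ratio of 1.55. GKO also exceeded DKO by 0.48 (SE 0.11, adjusted p = 0.00941). Without GKO replicate 1 these fell to 0.39 (adjusted p = 0.0586) and 0.38 (adjusted p = 0.0744), past the threshold of 0.05 in neither case. In DKO the difference from naïve ESCs was 0.01 (95% interval -0.25 to 0.27).

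Among the oxygen-sensing genes, Egln1 and Egln3 rose in GKO and Vhl did not pass. Egln1, on chromosome 8 at bases 125635308 to 125676865, encodes the main HIF prolyl hydroxylase. It measured 8.62 and 7.88 TPM in naïve ESCs, 8.48 and 6.996 in AKO, 9.51 and 9.40 in DKO, 15.8 and 17.5 in GKO, while primed ESCs had 26.5 and 30.6. The lines formed 3 levels, with the naïve, AKO and DKO libraries at 6.996 to 9.51 TPM, GKO above them, and primed ESCs above GKO. GKO exceeded naïve ESCs by 0.93 (SE 0.10, adjusted p = 1.01e-04, limma) and DKO by 0.75 (adjusted p = 4.55e-04). Both calls held under all 13 alternatives tried. DKO against AKO was 0.26 (SE 0.10, adjusted p = 0.0579), and this passed, among others, without AKO replicate 1 (0.39, adjusted p = 0.0260) and with rescaling to the same total (0.36, adjusted p = 0.0212).

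Egln3, on chromosome 12 at bases 54225767 to 54250673, encodes a hydroxylase that is itself strongly induced by hypoxia. It stood at 1.53 and 1.71 TPM in naïve ESCs, 2.01 and 1.83 in AKO, 1.07 and 1.26 in DKO, 3.27 and 3.00 in GKO, with 13.0 and 20.1 for primed ESCs. DKO was thus the lowest line, and no pair of lines overlapped. Against naïve ESCs, the median of the tested genes of chromosome 12 stood at 0.16 in AKO, 0.13 in DKO and 0.02 in GKO. Relative to that median, Egln3 was at 0.0014 in AKO, -0.41 in DKO and 0.64 in GKO. GKO exceeded naïve ESCs by 0.66 (SE 0.16, adjusted p = 0.00890, limma), which was lost without naïve replicate 1 (0.61, adjusted p = 0.0549) or GKO replicate 1 (0.61, adjusted p = 0.0557). GKO exceeded DKO by 0.93 (SE 0.16, adjusted p = 0.00197), a TPM ratio of 2.69. DKO against AKO was -0.43 (adjusted p = 0.0572), and passed, among others, at a pseudocount of 0.1 (-0.68, adjusted p = 0.0182).

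Vhl, on chromosome 6 at bases 113600920 to 113608599, encodes the subunit that recognises hydroxylated HIF-α. It measured 19.5 and 19.5 TPM in naïve ESCs, 18.8 and 18.7 in AKO, 17.2 and 18.5 in DKO, 20.9 and 21.1 in GKO, but 10.3 and 10.9 for primed ESCs. The 4 lines grown in 2i lay within a narrow range, and primed ESCs well below it. GKO against naïve ESCs was 0.10 (SE 0.06, adjusted p = 0.146, limma), while the median gene of chromosome 6 stood at 0.14. Under the other scalings this difference was 0.15 to 0.23 and passed. GKO exceeded DKO by 0.23 (SE 0.06, adjusted p = 0.00978), but not at the threshold without DKO replicate 1 (0.18, adjusted p = 0.0692) or GKO replicate 2 (0.22, adjusted p = 0.0530).

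The target genes split in GKO. Vegfa, the endothelial growth factor gene on chromosome 17 at bases 46327919 to 46343309, measured 3.15 and 3.16 TPM in naïve ESCs, 3.89 and 3.00 in AKO, 3.88 and 3.19 in DKO, 6.78 and 7.85 in GKO, with 8.95 and 11.1 for primed ESCs. Naïve, AKO and DKO libraries overlapped or nearly so, and both GKO libraries lay above them. The difference of GKO was 1.00 from naïve ESCs (SE 0.13, adjusted p = 3.20e-04, limma) and 0.88 from DKO (SE 0.13, adjusted p = 9.40e-04), and both held under all 13 alternatives. The median gene of chromosome 17 stood at -0.07 in GKO.

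Ndrg1, a stress-responsive gene on chromosome 15 at bases 66801166 to 66841835, measured 2.67 and 2.79 TPM in naïve ESCs, 3.00 and 2.89 in AKO, 2.16 and 3.10 in DKO, 4.87 and 5.42 in GKO, with 5.69 and 10.6 for primed ESCs. GKO exceeded naïve ESCs by 0.72 (SE 0.22, adjusted p = 0.0239, limma) and DKO by 0.77 (SE 0.22, adjusted p = 0.0212). The DKO libraries lay on either side of the naïve ones, and the GKO libraries above all of these. The first call was lost without any one of the 4 libraries (adjusted p 0.0674 to 0.111), and the second without DKO replicate 1 (0.58), GKO replicate 1 (0.84) or GKO replicate 2 (0.71). Both were also lost with no filter on low values. Against naïve ESCs, the median gene of chromosome 15 stood at -0.15 in GKO and -0.16 in DKO.

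Bnip3 and Ankrd37 did not share this rise. Bnip3, a mitophagy receptor gene on chromosome 7 at bases 138490690 to 138511253, measured 7.81 and 8.80 TPM in naïve ESCs, 11.9 and 6.93 in AKO, 10.5 and 11.3 in DKO, 7.28 and 9.39 in GKO, against 57.8 and 88.8 for primed ESCs. GKO and naïve libraries overlapped, with a 95% interval of -0.56 to 0.55 for the log2 difference, which takes in a change of the size seen in Epas1. DKO against naïve was 0.35 (SE 0.24, adjusted p = 0.269, limma). The AKO libraries lay farther apart than those of any other 2i line.

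Ankrd37, an ankyrin repeat gene on chromosome 8 at bases 46449939 to 46458744 and a known HIF-1 target, measured 4.24 and 5.26 TPM in naïve ESCs, 4.97 and 2.89 in AKO, 3.36 and 4.54 in DKO, 2.80 and 2.84 in GKO, with 2.82 and 4.03 for primed ESCs. Both GKO libraries lay below the other 2i libraries. The GKO difference from naïve ESCs was -0.58 (SE 0.21, adjusted p = 0.0465, limma), and it missed the threshold in 9 of 12 alternatives, with each of the 4 libraries left out (adjusted p 0.0706 to 0.215) and with a replicate block (adjusted p = 0.0589) among them. Car9, on chromosome 4 at bases 43506966 to 43513729, encodes a carbonic anhydrase widely used as a hypoxia marker. It was at 0.111 to 0.524 TPM in all 10 libraries and was not tested.

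Whether the effect of Gys1 loss depended on AMPK was asked with the interaction, the GKO minus naïve difference less the DKO minus AKO difference. It was positive for Egln1 (0.66, SE 0.14, adjusted p = 0.00969, limma), Egln3 (1.09, SE 0.23, adjusted p = 0.00951) and Vegfa (0.97, SE 0.19, adjusted p = 0.00657). These 3 of 9 genes (33.3%) stand near the 25.8% of all genes tested, 12.8% positive and 13.1% negative. A count so close to the share of all genes does not set the 9 genes apart. The 3 were called under every alternative that included them. Ndrg1 (0.85, adjusted p = 0.0780) and Epas1 (0.42, adjusted p = 0.0908) did not pass, and Hif1a was at 0.13 (95% interval -0.11 to 0.38). DKO against AKO, the comparison of Gys1 loss between the AMPK KO lines, gave 0 of 9 calls (limma). Of the 9 genes, 2 had an unadjusted p under 0.05 (Egln1 and Egln3). Of all genes 46.3% were called (22.4% higher, 23.9% lower). The 0 calls hold for these 9 genes only. Of the 47 further pathway genes described below, 26 were called (55.3%), 12 higher and 14 lower in DKO than in AKO. These lines were not equal in Prkaa1 mRNA, which was a mean of 7.09 TPM in AKO and 2.17 TPM in DKO (log2 difference -1.35, adjusted p = 3.39e-06, limma). The 2 differences share no library. The order in which DKO was made is not given in the sources used here, and clone and genotype cannot be told apart.

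**Figure D3:**
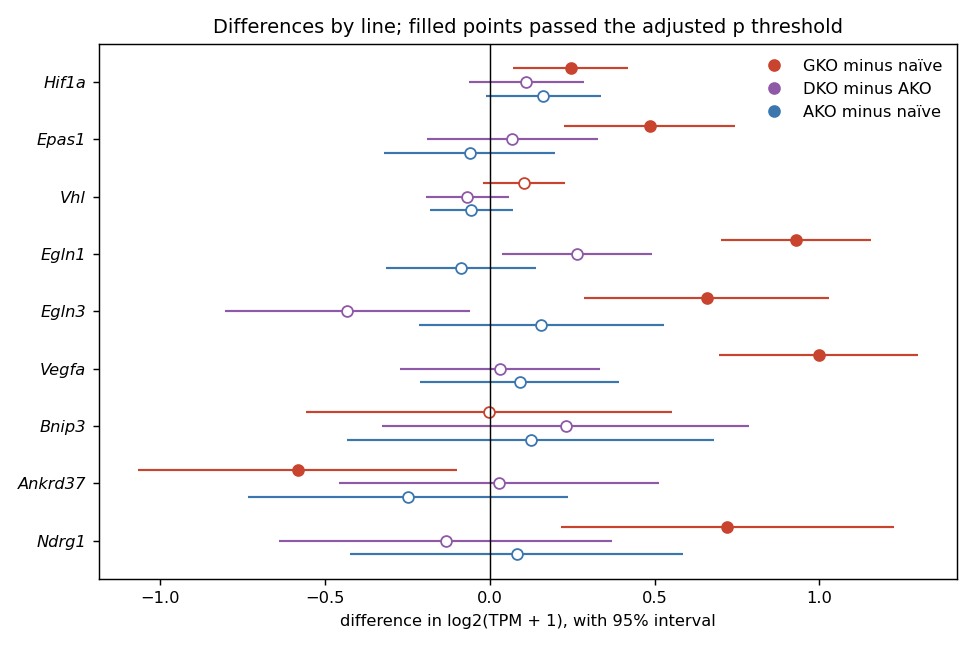
Differences in log2(TPM + 1) with 95% intervals (horizontal axis) for the 9 tested HIF pathway genes, for GKO minus naïve, DKO minus AKO and AKO minus naïve. Filled points passed an adjusted p of 0.05; 7 are filled for GKO and 0 for the other 2 comparisons.

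Between primed and naïve ESCs 8 of the 9 genes were called, 6 higher and 2 lower in primed ESCs, in a comparison where 80% of all genes were called, 37.4% higher and 42.5% lower. This share is near that of all genes, so only the sizes are described. Of all calls 46.8% were higher, and 57% after rescaling to the same total. Bnip3 rose by 2.97 (SE 0.24, adjusted p = 3.44e-06, limma), a TPM ratio of 8.83, and Egln3 by 2.72 (SE 0.16, adjusted p = 4.07e-07), a ratio of 10.2. Egln1 rose by 1.67, Vegfa by 1.40, Ndrg1 by 1.24 and Hif1a by 0.82. In contrast, Vhl fell by 0.83 (SE 0.06, adjusted p = 8.26e-07) and Epas1 by 0.77 (SE 0.11, adjusted p = 1.99e-04). The 2 factor genes therefore moved in opposite directions. Ankrd37 was at -0.39 (95% interval -0.87 to 0.10, adjusted p = 0.124). The 8 calls held without each naïve or primed library.

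The rest of the pathway was described with 3 lists of 50 further genes, of which 47 were tested. In GKO 12 were higher and 15 lower than in naïve ESCs, with a median of -0.03, and these 57.4% stand near the 51.7% of all genes. Of 10 partners and oxygen-sensing genes 1 was higher, Cul2 (a scaffold of the Vhl ligase, 46.6 against 38.6 TPM), and 6 were lower. Among these, Hif1an, the asparaginyl hydroxylase that restrains HIF activity, was at 14.1 against 20.9 TPM, and Cited2, a competitor of HIF for its coactivator, at 21.9 against 31.5 TPM. Of 22 other hypoxia targets 8 were higher and 4 lower. P4ha2, a collagen prolyl hydroxylase, was at 3.50 against 0.443 TPM, and Ddit4, an mTOR inhibitor, at 15.4 against 7.66 TPM. Edn1, the endothelin gene, was at 0.747 against 2.38 TPM, and Mxi1, a Myc antagonist, at 15.3 against 21.3 TPM. Of 15 glycolytic targets 3 were higher and 5 lower. The glycolytic enzyme genes Pgam1 (195 against 324 TPM) and Eno1 (493 against 769 TPM) fell, both genes with near-identical copies among which reads may be split, whereas Pfkl (32.9 against 22.3 TPM) and the glucose transporter gene Slc2a3 (512 against 379 TPM) rose. Each list thus held genes that moved either way.

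In DKO 12 of the 47 were higher and 13 lower than in naïve ESCs (53.2%, against 46% of all genes), and in AKO 0 were called (limma), 6 having an unadjusted p under 0.05. In primed ESCs 26 were higher and 17 lower (91.5%, against 80% of all genes). The HIF partner gene Arnt2 (7.24 against 0.77 TPM) and Hif3a (7.13 against 2.41 TPM) rose while Arnt (17.6 against 27.6 TPM) and Elob, an adaptor of the Vhl ligase (167 against 300.3 TPM), fell. Of other targets 16 of 22 were higher, with Ddit4 at 114 TPM and P4ha2 at 14.3 TPM, and 5 lower, with Ak4, an adenylate kinase gene, at 24.01 against 115 TPM and Kdm3a, a histone demethylase gene, at 13.6 against 59.3 TPM. Of 15 glycolytic targets 8 were higher and 5 lower. The lactate transporter gene Slc16a3 was at 524 against 24.4 TPM and Aldoc at 20.2 against 2.89 TPM, whereas Pfkp (11.6 against 44.9 TPM) and Hk2 (42.3 against 100.1 TPM) fell.

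**Figure D4:**
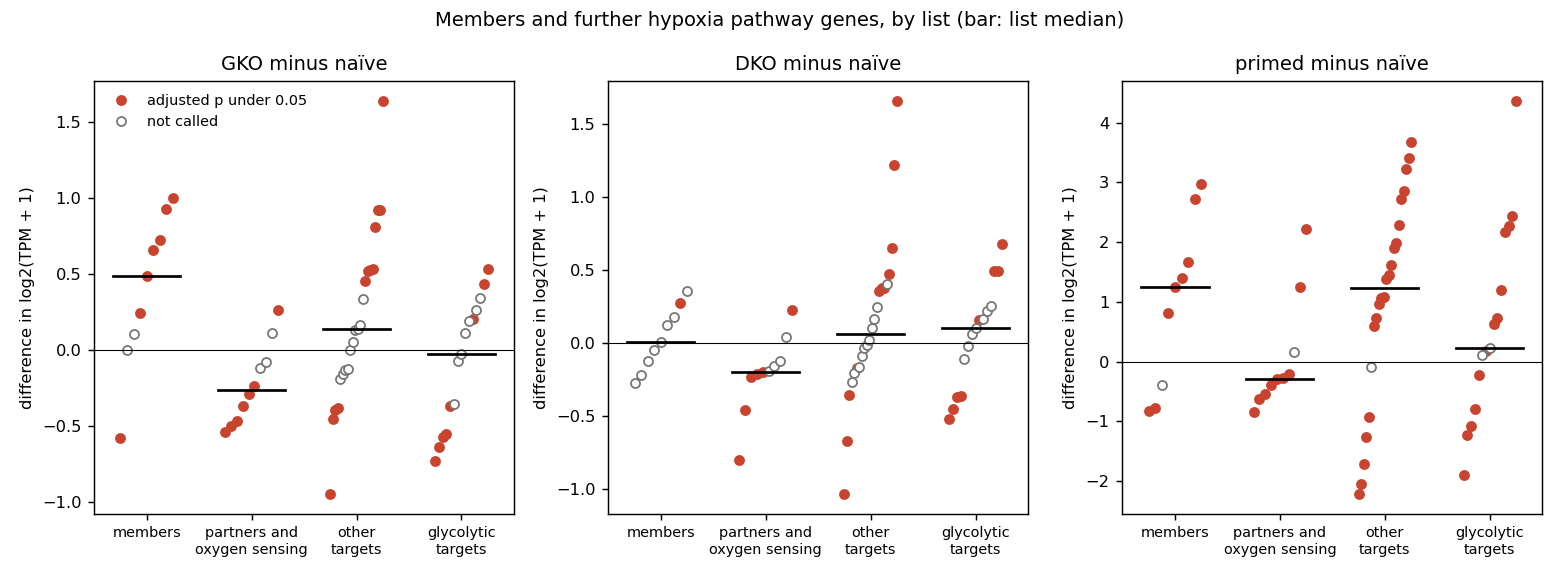
Differences in log2(TPM + 1) from naïve ESCs (vertical axes, scaled separately) for the 9 tested HIF pathway genes and for 3 lists of further pathway genes in GKO, DKO and primed ESCs. Each point is a gene, filled where the adjusted p was under 0.05, and bars are list medians; in GKO the 9 genes have a median of 0.48 and the partners and oxygen-sensing genes one of -0.26.

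For each tested gene, the genes whose log2(TPM + 1) ran most alike over the 10 libraries were listed by Pearson's r, as a description in which the step to primed ESCs dominates and all points share the same libraries. Vhl ran closest to Itpka and Nrf1 (r = 0.999 and 0.998), Egln1 to Tmcc2 and Fam120b (both 0.994), Egln3 to Acsl4 and Hmgn5 (both 0.995), and Bnip3 to Galns and Ndufa4l2 (both 0.994). Vegfa ran closest to Sfmbt1 (0.992) and Gpr27 (0.987), Epas1 to Sdr39u1 (0.988) and Mad2l1 (0.983), Ndrg1 to Sema4g (0.983) and Cd302 (0.979), and Hif1a to Tnfrsf19 (0.980) and Phldb2 (0.979). Ankrd37 had no such close match, the nearest being Frmd8 (0.883) and Lmna (0.854).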

How the data were processed

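Poly(A) RNA of 5 lines was sequenced, with 2 libraries each, and the authors deposited a TPM value per gene for each library. According to the submitters' processing notes reads were trimmed with Trim Galore 0.6.6, aligned with STAR 2.7.9a and quantified with RSEM 1.3.3. The notes name the builds GRCm38 and GRCh38, the study's methods name GRCm39 and another STAR version, and the labels and methods name different library kits, so build and kit are uncertain. TPM is relative within a library, so a large shift in a few genes moves all others, and depth is unknown.

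From the TPM values, log2(TPM + 1) was fitted with limma 3.58.1 in R 4.3.3, with a mean per line over all 10 libraries, a prior variance that followed intensity and 5 residual degrees of freedom. Tests were two-sided, adjusted by Benjamini-Hochberg over the 12060 genes tested, with a threshold of 0.05. Positions are from GENCODE on GRCm39 and promoters from RefSeq on GRCm38.p6. Positions were matched for 11586 genes. Named were the 10 HIF pathway genes, the 2 largest rises and falls passing the threshold in each further list, in GKO and in primed ESCs, the 2 closest genes by correlation, the targeted genes and cell type markers. Aldoa, listed more than once, and Epo and Ppp1r3c, below the filter, were not tested. These genes and lists were chosen with earlier results of these data known. Alternatives changed the pseudocount, filter, scaling, trend, libraries in the fit or replicate block.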

Additional observations from a re-analysis of the deposited data

Results flagged for a closer look

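By the interaction test in limma, the GKO minus naïve difference departed from the DKO minus AKO difference for 3 of 9 HIF pathway genes (33.3%). It did so for 7 of the further genes named above, which had been named for large changes in GKO or primed ESCs. The GKO change is itself part of the interaction. Of all 47 further genes tested 13 passed (27.7%), beside 25.8% of all genes. Clone and genotype cannot be told apart, and Prkaa1 mRNA differed between AKO and DKO. Among the HIF pathway genes the interaction was 0.66 for Egln1 (adjusted p = 0.00969), 1.09 for Egln3 (adjusted p = 0.00951) and 0.97 for Vegfa (adjusted p = 0.00657). For each of these both GKO libraries lay above both naïve libraries. The share of all genes that separate in this way was not counted. Of the further genes P4ha2 was at 0.62 (adjusted p = 0.0112), while Hif1an was at -0.33 (adjusted p = 0.0104), Edn1 at -0.94 (adjusted p = 0.00104), Kdm3a at -0.26 (adjusted p = 0.0407), Aldoc at -1.06 (adjusted p = 0.00329), Pgam1 at -0.34 (adjusted p = 0.0128) and Eno1 at -0.76 (adjusted p = 2.58e-04). All are on the log2(TPM + 1) scale.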

How the results depend on the processing

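Of 25 called differences of the HIF pathway genes, 16 passed under every alternative and 0 changed direction. The count in GKO against naïve (7) was 3 of 5 tested at a mean of at least 5 TPM and 2 to 4 with a library left out. GKO against DKO (6) gave 3 and primed against naïve (8) gave 5, of 5 tested each, at that mean. DKO against naïve (1) gave 3 with only the lines compared and 0 to 1 with a library left out. DKO against AKO (0) gave 1 with a pseudocount of 0.1, a mean of at least 5 TPM, rescaling, median-ratio scaling or only the lines compared, 2 with quantile normalization, and 0 to 1 with a library left out. The interaction (3) gave 5 with only the lines compared. The calls over all genes moved as well. With only the lines compared they went from 5544 to 6379 of 12060 in DKO against naïve. In DKO against AKO they went from 5587 to 6203, and in the interaction from 3116 to 4499. At a mean of at least 5 TPM they were, of 8294 genes, 4546 in GKO against naïve, 3817 in GKO against DKO and 6546 in primed against naïve. Further genes in the interaction (13) gave 8 to 14 with a library left out. Sign changes, all of differences that were not called, were for Bnip3 in GKO against naïve 0.11 on rescaling and 0.0476 on median-ratio scaling, -0.17 to 0.16 with a library left out. Quantile normalization gave -0.0506 for Epas1 in DKO against naïve and, in DKO against AKO, -0.0169 for Epas1, -0.0434 for Vegfa and -0.0456 for Ankrd37. Rescaling gave 0.0118 for Vhl in DKO against AKO and 0.0264 for Hif1a in GKO against DKO. With a library left out the ranges were, in DKO against naïve, Epas1 -0.0069 to 0.0213, Ndrg1 -0.24 to 0.14, and, in AKO against naïve, Egln1 -0.21 to 0.0361, Vegfa -0.0536 to 0.23, Bnip3 -0.23 to 0.48, Ankrd37 -0.56 to 0.0605, and, in DKO against AKO, Vegfa -0.11 to 0.17, Bnip3 -0.12 to 0.58, Ankrd37 -0.28 to 0.34, Ndrg1 -0.32 to 0.0545, and, in GKO against DKO, Hif1a -0.0625 to 0.0067, and, in the interaction, Bnip3 -0.58 to 0.12. The replicate numbers did not pair the libraries (correlations of deviations -0.128 to 0.078 over 10 pairs of lines). With a replicate block 6 genes were called in GKO against naïve, Ankrd37 being lost (adjusted p = 0.0589, limma), and 4 in the interaction, with Ndrg1 gained (adjusted p = 0.0490). Over all genes AKO against naïve gave 27 calls, 13 with a pseudocount of 0.1, 17 at a mean of at least 5 TPM, 10 on rescaling, 8 with a block and 0 with only the lines compared. Rescaling moved the median of all genes in primed against naïve from -0.05 to 0.11, and raised the share of higher calls in DKO against naïve from 47.2% to 58.8%, in DKO against AKO from 48.4% to 62.5% and in GKO against DKO from 48.6% to 59.2%. The causes were not tested. With 2 libraries a line and no counts, differences in genes of few TPM are the least precise.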

Other observations

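The replicates of AKO and of primed ESCs differed at HIF pathway genes, a pattern seen after the values were known. In AKO 2 of 9 tested genes differed by more than 0.5 on the log2 scale, Bnip3 (-0.70) and Ankrd37 (-0.62). Both were lower in replicate 2, and 0.75% of all genes tested differed by that much in either direction. The median of replicate 2 minus replicate 1 over the 9 genes was -0.09 in AKO and 0.05 in naïve ESCs. Over all genes it was -0.0025 and 0.002, and in AKO Vhl (-0.0064) and Hif1a (-0.0183) hardly differed. In primed ESCs 3 of 9 were higher in replicate 2 by more than 0.5, Ndrg1 (0.80), Bnip3 (0.61) and Egln3 (0.59), against 5.66% of all genes in either direction. In naïve ESCs, DKO and GKO 0 of 9 differed by that much. Slc2a1, a glucose transporter gene, measured 381 and 710 TPM in primed ESCs, and Slc16a3 at 39.8 and 18.3 TPM in the AKO libraries.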
